A study of Mus musculus with 195 samples.

Results

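The 9 genes described here write, keep or erase DNA methylation, and were followed through 195 libraries of BATSeq, a method that counts transcript molecules at their 3′ ends in single mouse cells. They are Dnmt1, Dnmt3a, Dnmt3b, Dnmt3l, Uhrf1, Zfp57, Tet1, Tet2 and Tet3, chosen by name for their function, and they are 9 of the 19736 genes in the deposited table of genes. All 9 were found in that table. The cells are 48 embryonic stem cells kept with 10 ng/ml LIF, 1 µM PD0325901 and 3 µM CHIR99021 (ESC-2i), 48 kept in 10% FBS with 10 ng/ml LIF (ESC-FCS), 48 neural progenitors derived from embryonic stem cells and grown with N2 and B27 (NSC), and 48 further cells from the serum medium (ESC-FCS control). By the study's methods, the NSC medium also held EGF and bFGF, and the ESC-2i medium also held N2 and B27. PD0325901 and CHIR99021 inhibit the kinases MEK and GSK3. All come from the line 46C, which carries GFP at the Sox1 locus, and the cells were sorted for low DNA content and small size, so they are in G0/G1 by their labels. A pool of 48 ESC-FCS cells was made on the same day as the control cells, and 2 pools of 48 ESC-2i cells were made from purified RNA, unlike the single cells. No label names replicate cultures, so each population is 1 culture. The labels put 24 cells of each population in each of 2 library batches. These make 8 batches, each with cells of 1 population, so batch and population cannot be told apart between populations. A ratio in batch 1 or batch 2 alone sets the batches of that number in each population against each other, and these are separate libraries.

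In mammals DNA methylation sits mostly on cytosines of CpG dinucleotides. Dnmt3a and Dnmt3b place it on unmethylated DNA, and Dnmt3l, a relative with no catalytic activity of its own, stimulates them. Dnmt1 copies the mark to the new strand after replication, brought there by Uhrf1, which recognises hemimethylated CpGs. Zfp57 is a zinc-finger protein that keeps methylation at imprinted regions through Trim28, and the Tet enzymes oxidise 5-methylcytosine as a step toward its removal. Embryonic stem cells in 2i medium are known for low DNA methylation relative to cells in serum.

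The 9 genes could be counted because their transcripts end at sites the method maps, and the bases before those ends show what was counted. Each sequence below is the 30 bases, 5′ to 3′ on the transcript strand, that finish at the named end, read from GENCODE M21 transcripts (build GRCm38). Capitals mark AATAAA or ATTAAA, the hexamers that the cleavage machinery recognises, searched on the transcript strand alone. The first set holds the most used end of 5 genes, which took most molecules of each gene over the series.
Dnmt3l, chr10:78063584-78063613, plus strand: gtgaagtttttcaaatatatcataggattg
Dnmt3b, chr2:153687695-153687724, plus strand: acctttctggttgATTAAAgttgtatttct
Uhrf1, chr17:56323454-56323483, plus strand: catattgcAATAAAATAAAattctggccgg
Zfp57, chr17:37010578-37010607, plus strand: accccacaaAATAAAtacaatttttaaaac
Dnmt1, chr9:20907210-20907239, minus strand: tttcttcaaAATAAAgcgcttctgtcaagc
The second set shows ends of Dnmt3a and Tet1, which used several.
Dnmt3a, chr12:3908967-3908996, plus strand: ctggagcaAATAAAaaaacatacaaaatgt
Tet1, distal end, chr10:62804571-62804600, minus strand: tataaAATAAAttttatacttctattttgc
Tet1, proximal end, chr10:62812709-62812738, minus strand: tttgatatcaacaaaattaagtgtaaatgc

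All Dnmt3l molecules of the series, 298 in number, lay at this 1 end, 2 bases from an annotated transcript end of the gene (chromosome 10, 78041947 to 78063622). Neither hexamer is in its 30 bases. Dnmt3b was nearly as focused, with 99.3% of 287 molecules at 1 end, Dnmt1 had 94.7% of 356 and Uhrf1 93.0% of 615, the last with a pair of overlapping AATAAA. Tet2 had 75.6% of its 131 molecules at 133463683 on chromosome 3, and Tet3 had 11 of 16 at 83362379 on chromosome 6. Zfp57 had 65.0% of 120 molecules at the end shown and 30 molecules at another just downstream, at position 37010627. In the ESC-2i pools this downstream end held 22 Zfp57 molecules and the end shown 20. Except for that of Tet1's proximal end, which is coding sequence, all sequences shown lie in untranslated exons. The Dnmt3a end shown, with 28 of 117 molecules, is not the one it used most. Over the most used ends of 5670 genes, the same 30 bases held AATAAA in 68.5% and ATTAAA alone in 15.1%.

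Depth sets what can be seen. The analysis kept 33 ESC-2i cells (5342 to 21050 molecules on genes, median 10864), 33 ESC-FCS cells (1079 to 14819, median 6375), 41 NSC (1234 to 9037, median 3282) and 42 ESC-FCS control cells (1323 to 14547, median 4723.5), each with at least 1000 molecules. Levels are molecules of a gene per 10000 molecules on genes, summed over a population's cells, with 95% exact Poisson intervals that cover counting error only. All 10 marker genes of embryonic stem cells had molecules in each stem cell population, and 3 of 10 did in NSC, where Nanog and Pou5f1 were at 0. Summed neural stem cell markers reached 51.1 per 10000 in NSC (8 of 9 genes seen), against 1.93 in ESC-2i (6 of 9) and 1.63 in ESC-FCS (7 of 9). Pax6, on that list, was at 0 in NSC and ESC-2i but was seen in ESC-FCS and the control cells. Summed markers of fibroblasts and astrocytes were at 0.0814 or less in all cell populations and those of 2-cell-like cells at 0. Summed markers of trophectoderm lay between 0.132 and 1.00, of primitive endoderm between 0.762 and 4.21 (in NSC from 1 of 5 genes, Sparc) and of neurons between 2.71 and 5.07. In the pools, summed embryonic stem cell markers were at 35.4 in ESC-FCS (Pou5f1 and Dppa5a at 0) and 43.8 in ESC-2i (Dppa5a at 0). The ESC-2i pools also held 75 molecules of 2-cell-like markers (0.770 per 10000), unlike the cells.

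Between serum and 2i, the de novo methylation genes were higher in ESC-FCS, Uhrf1 and Zfp57 were higher in ESC-2i, and Dnmt1, Tet1 and Tet2 stayed within 2-fold. A ratio of pooled levels was called where it passed 2-fold and the gene had at least 20 molecules in both populations together, and no test was possible with 1 culture each. Of the 8 genes with enough molecules, 3 were higher in ESC-FCS, where 8.17% of all genes with enough molecules were, and 2 were lower, where 14.5% of all genes were. Tet3 had too few molecules.

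Dnmt3l, the cofactor, was at 0.652 per 10000 in ESC-2i (24 molecules, interval 0.417 to 0.969) and 3.35 in ESC-FCS (76 molecules, 2.64 to 4.20). This is a ratio of 5.15 (95% exact conditional interval 3.22 to 8.52). The ESC-FCS control cells lay between, at 2.38 (53 molecules, 1.78 to 3.11), 3.65 times the ESC-2i level (2.21 to 6.18). In all 4 pairings of library batches the ESC-FCS level was higher, by 2.44 to 7.90 times. In single cells, ESC-2i held 0 to 5 molecules (median 0), ESC-FCS 0 to 24 (median 1) and the control cells 0 to 10 (median 1). The ranges overlap, since cells without a molecule occur in each.

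Dnmt3b, a de novo enzyme, showed the same order, with 0.570 per 10000 in ESC-2i (21 molecules, 0.353 to 0.871), 1.17 in the control cells (26 molecules, 0.761 to 1.71) and 2.16 in ESC-FCS (49 molecules, 1.60 to 2.86). The ESC-FCS level was 3.79 times that of ESC-2i (2.23 to 6.66), and the control cells were at 2.04 times it (1.11 to 3.82). The intervals of the control cells and ESC-2i overlap, and those of ESC-2i and ESC-FCS do not. A cell of ESC-2i had 0 to 3 molecules (median 0) and a cell of ESC-FCS 0 to 6 (median 1).

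Dnmt3a, the other de novo enzyme, had the largest ratio of the 9 genes, 11.0 (3.82 to 43.1), with a wide interval. It rests on 4 molecules in ESC-2i (0.109 per 10000, 0.0296 to 0.278) and 27 in ESC-FCS (1.19, 0.785 to 1.73). By size it was the 18th highest ratio of 5007 genes, with Dnmt3l at rank 43 and Dnmt3b at rank 79. The serum cells themselves were uneven, since batch 1 of ESC-FCS held 24 of the 27 molecules and batch 2 held 3. In the control cells the split ran the other way between batches, with 2 and 11 molecules. The ratio was 16.1 in batch 1 alone and 3.02 in batch 2 alone, and 10.8 without the highest cell of each population. The control cells were at 5.37 times ESC-2i (1.66 to 22.6), with too few molecules to be called.

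The pooled libraries give another view of the de novo genes, in which Dnmt3l was higher in serum and the enzymes were not. In the ESC-FCS pool Dnmt3l was at 2.18 per 10000 (39 molecules), against 1.15 and 1.03 in the ESC-2i pools (55 and 51 molecules), a ratio of 2.00 over both (1.35 to 2.91). Dnmt3b was at 1.06 in the ESC-FCS pool (19 molecules) but at 1.86 and 1.68 in the ESC-2i pools (89 and 83 molecules), a ratio of 0.601 (0.353 to 0.967). Dnmt3a was at 0.335 in the ESC-FCS pool (6 molecules) and at 0.542 and 0.667 in the ESC-2i pools (26 and 33 molecules), a ratio of 0.553 (0.195 to 1.28). For both enzymes the direction seen in single cells was therefore not seen in the pools. The median ratio of the pools over all genes with enough molecules was 0.777. Of these 8013 genes, 36.0% lay below Dnmt3a, 39.1% below Dnmt3b and 80.6% below Dnmt3l, which passed the 2-fold limit only just. The ESC-2i pools, made from purified RNA, also departed from the ESC-2i cells, with Dnmt3a 5.58 times and Dnmt3b 3.10 times higher, and these 2 of 8 genes compare with 38.8% of all genes higher past 2-fold. Another 3 of 8 were lower (Zfp57, Tet1, Tet2), where 15% of all genes were.

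Among all genes, the background between 2 sets of serum cells is large. Between the ESC-FCS control cells and the ESC-FCS cells, 15.9% of genes were higher and 9.23% lower past 2-fold in the same medium. Of 7 members with enough molecules, Uhrf1 (2.03) and Tet2 (2.89) were higher and Dnmt3a was 2.04-fold lower there. Against the ESC-FCS cells, the ESC-FCS pool had 3 of 8 members higher (Uhrf1, Zfp57, Tet2), where 23.7% of genes were, and 2 of 8 lower (Dnmt3a, Dnmt3b), where 10% were. Against the control cells made on the same day it had 1 of 7 higher (Zfp57, 2.24), where 11.2% of genes were, and 0 lower, where 4.29% were. Against ESC-2i cells the control cells had 3 of 7 higher (Dnmt3b, Dnmt3l, Tet2), where 18.5% of genes were, and 1 lower (Zfp57), where 18.6% were. Markers of the formative or primed epiblast moved with the de novo genes across the stem cells. Their summed level was 0.136 per 10000 in ESC-2i (4 of 7 genes seen, Lefty1, Lefty2 and Sox3 at 0), 6.18 in ESC-FCS (7 of 7, cells from 0 to 25.1) and 2.20 in the control cells (5 of 7, cells from 0 to 15.1, Fgf5 and T at 0). It was 2.57 in the ESC-FCS pool (4 of 7) and 2.26 in the ESC-2i pools (6 of 7), where Dnmt3a and Dnmt3b were not higher in serum. Their part in the levels of the methylation genes was not tested.

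**Figure D1:**
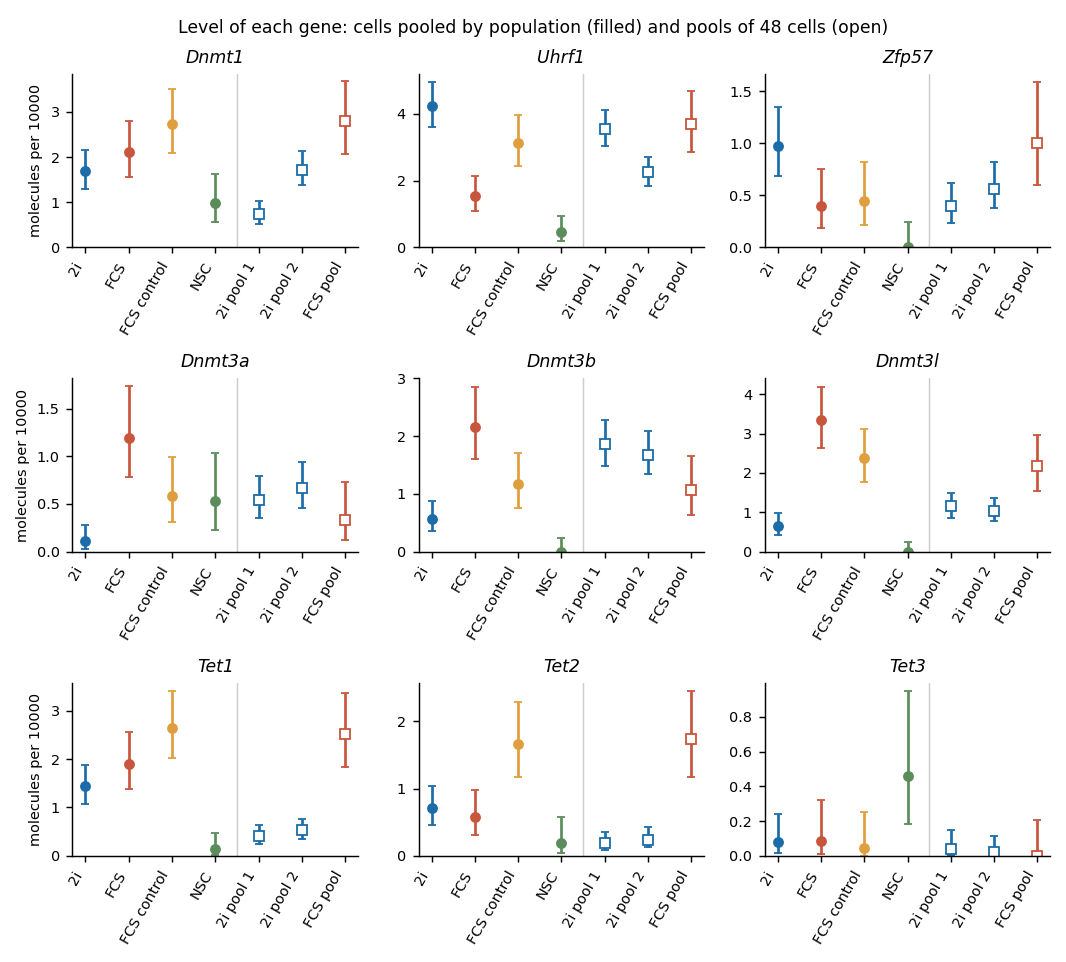
Level of each gene in molecules per 10000 molecules on genes (vertical axes, linear from 0) in the 4 cell populations (filled circles, cells pooled) and the 3 pools of 48 cells (open squares), with bars for 95% exact Poisson intervals. Dnmt3l was at 0.652 in ESC-2i and 3.35 in ESC-FCS, Uhrf1 ran the other way among these cells, and among the cell populations NSC lay lowest for all genes but Dnmt3a and Tet3.

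Uhrf1, which guides Dnmt1, was higher in ESC-2i than in ESC-FCS cells. It was at 4.24 per 10000 in ESC-2i (156 molecules, 3.60 to 4.95) and 1.54 in ESC-FCS (35 molecules, 1.08 to 2.15), so it was 2.74-fold lower in serum (1.89 to 4.08). The control cells, at 3.14 (70 molecules, 2.45 to 3.96), stood at 0.741 of the ESC-2i level (0.551 to 0.989), and their interval overlaps that of ESC-2i but not that of ESC-FCS. The pools were at 3.55 and 2.24 in ESC-2i (170 and 111 molecules) and 3.68 in ESC-FCS (66 molecules), a ratio of 1.28 (0.962 to 1.68). The low level was thus measured in the main ESC-FCS cells, in both of their batches (1.38 and 1.76), and not in the other serum libraries. A cell of ESC-2i held 0 to 18 molecules (median 4), and 31 of 33 cells had at least 1. A cell of ESC-FCS held 0 to 3 (median 1), and 19 of 33 had at least 1.

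Dnmt1, the maintenance enzyme, was at 1.68 per 10000 in ESC-2i (62 molecules, 1.29 to 2.16), 2.12 in ESC-FCS (48 molecules, 1.56 to 2.81) and 2.73 in the control cells (61 molecules, 2.09 to 3.51). The first 2 differ by less than their counting error, with a ratio of 1.26 (0.845 to 1.86). The control cells were at 1.62 times ESC-2i (1.12 to 2.35). The 2 ESC-2i pools differed from each other by more than these populations did, with 0.730 and 1.72 (35 and 85 molecules), a ratio of 2.35 (1.57 to 3.60). Dnmt1 was 1 of 8 genes higher past 2-fold between these pools, where 7.73% of all genes were, and 0 of 8 were lower, where 9.35% were. The ESC-FCS pool was at 2.79 (50 molecules).

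Summed genes of S phase, which could move with the maintenance genes, were at 34.4 per 10000 in ESC-2i, 41.2 in ESC-FCS, 49.6 in the control cells and 13.8 in NSC, with all 16 or 15 of the 16 genes seen. Across the cells of a population, Uhrf1 and the summed S phase level had Spearman correlations of 0.55 in 33 ESC-2i cells, 0.18 in 33 ESC-FCS cells and 0.52 in 42 control cells. For Dnmt1 they were 0.25, 0.27 and 0.43. Both measures of a cell share its depth, with which Uhrf1 correlated at 0.39 in ESC-2i, so these are descriptions. The part of S phase transcripts in the Uhrf1 and Dnmt1 levels was not tested otherwise.

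Zfp57, the keeper of imprints, had few molecules, with 36 in ESC-2i (0.977 per 10000, 0.684 to 1.35), 9 in ESC-FCS (0.397, 0.182 to 0.754) and 10 in the control cells (0.448, 0.215 to 0.824). It was 2.46-fold lower in ESC-FCS (1.16 to 5.81) and 2.18-fold lower in the control cells (1.06 to 4.93), and both comparisons share the ESC-2i cells. In the pools it was at 0.396 and 0.566 in ESC-2i and 1.00 in ESC-FCS, 2.08 times higher in serum (1.14 to 3.65). When reads were used in place of molecules, the ESC-FCS to ESC-2i ratio was 0.830.

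Tet1 and Tet2 stayed within 2-fold between the ESC-FCS and ESC-2i cells, but not between the pools. Tet1, the best measured of them, was at 1.44 per 10000 in ESC-2i (53 molecules, 1.08 to 1.88), 1.90 in ESC-FCS (43 molecules, 1.37 to 2.56) and 2.65 in the control cells (59 molecules, 2.01 to 3.41). The ratio of ESC-FCS to ESC-2i was 1.32 (0.861 to 2.01). Tet2 was at 0.706 in ESC-2i (26 molecules) and 0.573 in ESC-FCS (13 molecules), a ratio of 0.813 (0.383 to 1.64), and at 1.66 in the control cells (37 molecules), 2.35 times ESC-2i (1.39 to 4.04). Tet3 had 3, 2 and 1 molecules in these 3 populations. In the pools both Tet1 and Tet2 were higher in serum, Tet1 at 2.51 against 0.417 and 0.525, a ratio of 5.32 (3.45 to 8.204), and Tet2 at 1.73 against 0.188 and 0.243, a ratio of 8.03 (4.47 to 14.7). Of the 8 genes with enough molecules, 5 were higher in the ESC-FCS pool (Dnmt1, Dnmt3l, Zfp57, Tet1, Tet2), where 19.4% of all genes were, and 0 were lower, where 31.9% of all genes were. Dnmt3l had the smallest ratio of these 5, at 2.00, just past the limit. The ESC-2i pools held 3.05-fold less Tet1 and 3.27-fold less Tet2 than the ESC-2i cells.

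**Figure D2:**
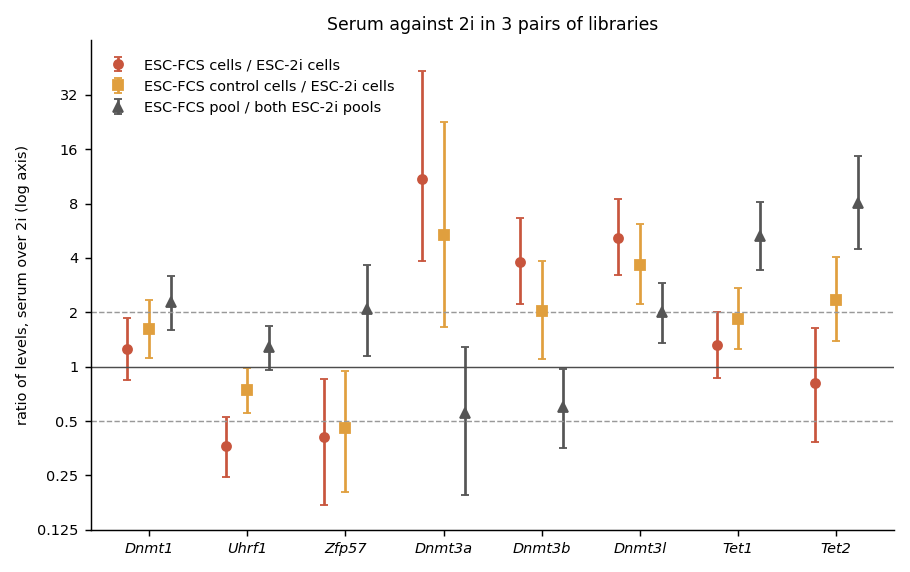
Ratio of the level in serum to that in 2i (vertical axis, log scale) for 8 of the genes in ESC-FCS cells over ESC-2i cells (circles), ESC-FCS control cells over the same ESC-2i cells (squares) and the ESC-FCS pool over both ESC-2i pools (triangles), with 95% exact intervals and dashed lines at 0.5 and 2. Dnmt3l lies at 5.15, 3.65 and 2.00, while Dnmt3b goes from 3.79 to 0.601 and Zfp57 from 0.406 to 2.08.

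How molecules are scaled bears on these ratios. ESC-FCS cells held 24.2 molecules on genes per ERCC spike-in molecule and ESC-2i cells 11.7, so scaling to spike-ins raises every ESC-FCS to ESC-2i ratio by 1.05 on the log2 scale. Relative to that common shift nothing changes. Scaled to spike-ins, Dnmt3a, Dnmt3b and Dnmt3l remained higher at 22.7, 7.83 and 10.6, and Dnmt1 and Tet1 passed 2-fold at 2.60 and 2.72. Uhrf1 (0.753) and Zfp57 (0.839) stayed below 1 without passing 2-fold. Tet2 crossed from 0.813 to 1.68. The spike-in scale also differed within the serum medium, so these ratios are not absolute levels. The control cells held 223055 molecules on genes beside 3326 ERCC molecules, and the ESC-FCS cells 226683 beside 9378.

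In NSC most of the 9 genes were scarce. Together they had 42 molecules in 41 cells (2.77 per 10000), where the ESC-2i cells had 385 (10.5), the ESC-FCS cells 302 (13.3) and the control cells 330 (14.8), and 18 NSC held no molecule of any of them. Dnmt3b, Dnmt3l and Zfp57 were at 0 of 151877 molecules, with a 95% exact upper limit of 0.243 per 10000. A chosen floor of 3 molecules over the population is 0.198 per 10000. With that floor in place of 0, Dnmt3l was 17.0-fold lower than in ESC-FCS and 3.30-fold lower than in ESC-2i. Dnmt3b was 10.9-fold and 2.89-fold lower, and Zfp57 4.95-fold lower than in ESC-2i. The 95% exact intervals of these ratios reach lower, to 13.5-fold and 2.48-fold for Dnmt3l, 8.57-fold and 2.15-fold for Dnmt3b and 3.82-fold for Zfp57.

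Tet1 had 2 molecules in NSC (0.132 per 10000, 0.0159 to 0.476), 14.4-fold below ESC-FCS (3.75 to 123) and 10.9-fold below ESC-2i (2.88 to 92.6). Uhrf1 had 7 (0.461, 0.185 to 0.9496), 3.35-fold below ESC-FCS (1.47 to 8.94) and 9.19-fold below ESC-2i (4.36 to 23.2). Of these 7 molecules, 5 were in 1 cell, D6, and batch 2 had 0. Without the highest cell of each population Uhrf1 was 10.8-fold below ESC-FCS and 28.9-fold below ESC-2i. Dnmt1 was the least reduced of the genes with enough molecules in both comparisons, at 15 molecules (0.988, 0.553 to 1.63), 2.14-fold below ESC-FCS (1.18 to 4.12) and 0.587 of ESC-2i (0.310 to 1.04). Tet2 had 3 molecules, 3.57-fold below ESC-2i (1.10 to 18.4), though in batch 2 alone the ratio was 1.01.

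Dnmt3a and Tet3 were not at their lowest in NSC among the cell populations. Dnmt3a was at 0.527 (8 molecules in 8 cells, 0.227 to 1.04), 2.26-fold below ESC-FCS, with an interval that reaches 1.00 and a ratio of 2.23 the other way in batch 2 alone. It was 1.99-fold lower with cells weighted equally and 1.91-fold lower without the highest cell, short of the limit. It stood at 0.904 of the control cells (0.325 to 2.35). Against the 4 molecules of ESC-2i it was 4.85 times higher (1.30 to 22.0), with too few molecules to be called. Tet3 had 7 molecules in 7 NSC (0.461, 0.185 to 0.9496) and 6 in all stem cells kept, 5.66 times ESC-2i (1.29 to 33.9) and 5.22 times ESC-FCS (0.995 to 51.5), also too few to be called. Of the genes with enough molecules, which most met through their molecules in the stem cells, 6 of 6 were lower in NSC than in ESC-FCS (18.4% of all genes were), 6 of 7 lower than in ESC-2i (24.3% of all genes were) and 6 of 7 lower than in the control cells (26.1% of all genes were). The comparisons called 20.9%, 19.3% and 21.1% of all genes higher and none of these members, but the minimum left out, among others, Tet3 and, against ESC-2i, Dnmt3a. These counts therefore do not stand for all 9 genes. With no minimum 8 were lower and 1 higher than in ESC-FCS, and 6 lower and 2 higher than in ESC-2i. Shares of all genes with no minimum are not given here. NSC cells were the shallowest, and scaling to spike-ins lowered every NSC to ESC-FCS ratio by a further 1.34 on the log2 scale and every NSC to ESC-2i ratio by 0.30, with no change of direction among the 9 genes.

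Shares of cells with a molecule depend on depth, so each cell was also thinned to 2000 molecules, leaving out 8 NSC, 4 control cells and 1 ESC-FCS cell below that. Dnmt3l was then expected in 11.8% of ESC-2i, 36.6% of ESC-FCS, 33.2% of control and 0% of NSC cells, against 33.3%, 65.6%, 60.5% and 0% unthinned. Uhrf1 was expected in 52.5%, 26.1%, 46.7% and 5.97%, against 93.9%, 59.4%, 76.3% and 9.09%. Dnmt3a was expected in 1.75% of ESC-2i, 19.4% of ESC-FCS, 10.8% of control and 12.5% of NSC cells. Tet1 stood at 23.6% and 32.7% in these populations and at 2.29% in NSC. For Dnmt3l, Uhrf1 and Tet1 the populations took the same order as in the pooled levels, and for Dnmt3a the control cells and NSC changed places. All 3 of Dnmt3a, Dnmt3b and Dnmt3l were seen together in 9 of 33 ESC-FCS cells, 2 of 42 control cells and 0 of 33 ESC-2i cells, without thinning.

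**Figure D3:**
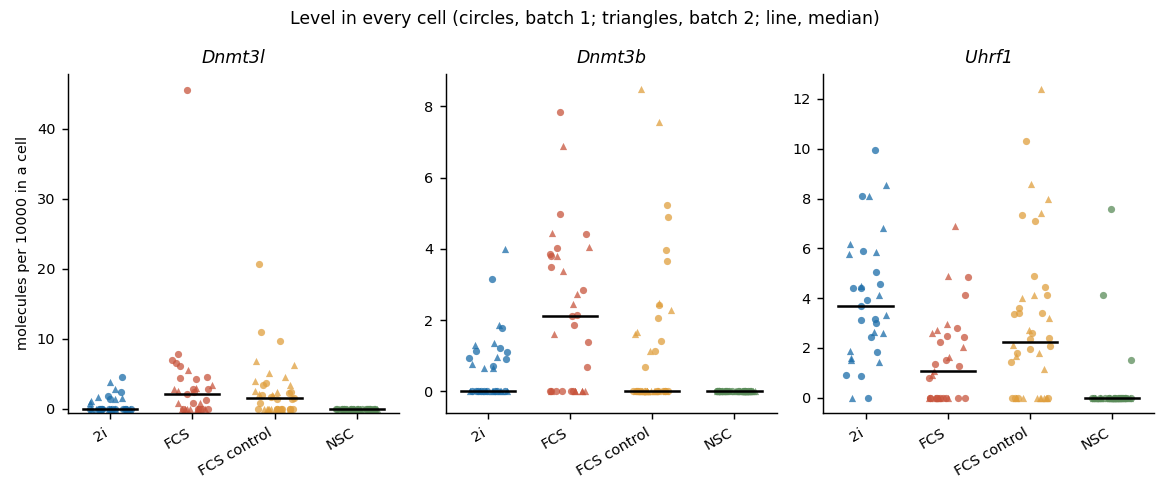
Molecules per 10000 molecules on genes in every cell (vertical axes, linear) for Dnmt3l, Dnmt3b and Uhrf1 in the 4 populations, with circles for library batch 1, triangles for batch 2 and a line at the median over cells. A single ESC-FCS cell reached 45.6 for Dnmt3l, and all NSC lie at 0 for Dnmt3l and Dnmt3b.

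Whether a gene varied between cells of 1 population was tested against technical noise measured on the ERCC transcripts (the one-sided chi-square test of Brennecke and colleagues, with a margin of 0.25 in the squared coefficient of variation, CV2, and Benjamini-Hochberg adjustment over all genes with a normalized mean above 0.5). Dnmt3l was the member that passed, in both sets of serum cells. In ESC-FCS it ranked 5th by p of 2026 genes, with 68 genes called (3.36%), and in the control cells, a separate set, it had a CV2 of 3.78 where noise alone gave 1.34 (adjusted p = 6.34e-05, rank 38 of 1690 genes, 6.15% called). The noise fit was thin there, with 7 ERCC transcripts in the control cells, 9 in ESC-FCS and 16 in ESC-2i. Size factors of the spike-ins came from 3, 5 and 12 transcripts in the same order. In ESC-2i its CV2 was 2.89 against 1.75 (p = 0.0472, adjusted p = 1.00), and 0 of 7 members passed, 1 of them at an unadjusted p under 0.05, where 0.608% of 3616 genes were called. No member reached the mean needed for the test in NSC, where 10.7% of genes were called.

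The Dnmt3l call rests on few cells. In ESC-FCS, cell A7 of batch 1 held 24 of the 76 molecules in a total of 5268 molecules on genes, or 45.6 per 10000, and the next highest level was 7.84 in cell B10. Cell A7 also held the most molecules of Dnmt3a (7 of 27), Tet1 (5) and Tet2 (3), and 2 molecules each of Dnmt1 and Dnmt3b. Its Tet1 level of 9.49 per 10000 was below the highest, 10.4 in another cell. In the control cells, cell B3 of batch 1 held 10 of 53 in a total of 4824, or 20.7 per 10000. Without the highest cell of the gene, Dnmt3l no longer passed in ESC-FCS (CV2 1.21 against 1.13, adjusted p = 1.00) or in the control cells (CV2 1.63 against 1.82, adjusted p = 1.00). In batch 2 alone it did not pass in ESC-FCS (adjusted p = 1.00) or in the control cells (adjusted p = 0.973), and with size factors from total molecules it did not pass in the control cells (adjusted p = 0.287). The ratio of ESC-FCS to ESC-2i without the highest cell of each was 4.41.

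Dnmt3a in ESC-FCS came next, with a CV2 of 3.67 against 1.96 (p = 0.0101, adjusted p = 0.238), and with no margin its adjusted p was 0.0291. The other 4 members tested in ESC-FCS had a CV2 between 0.983 (Dnmt3b) and 1.61 (Tet1), against technical values of 1.14 to 1.68, and each had an adjusted p of 1.00.

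**Figure D4:**
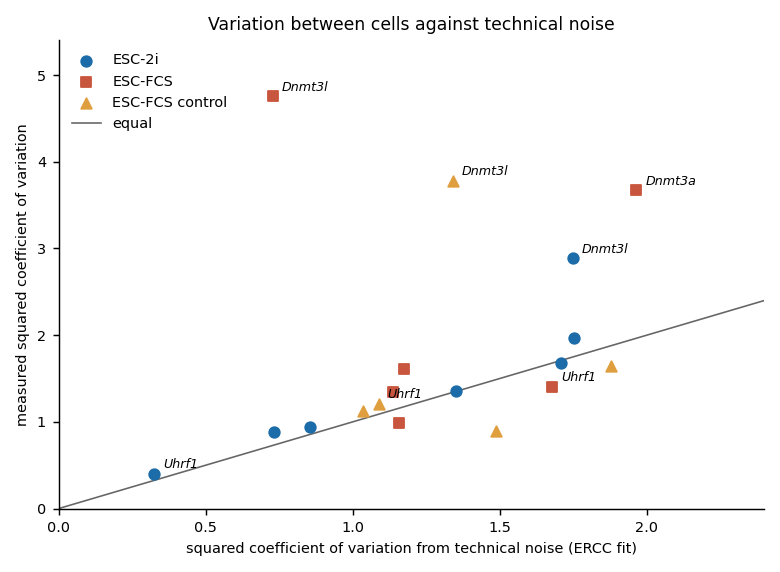
Measured squared coefficient of variation over cells (vertical axis) against the value fitted as technical noise (horizontal axis) for the members tested in ESC-2i (circles), ESC-FCS (squares) and ESC-FCS control cells (triangles), with a line where both are equal. Dnmt3l stands above the line at 4.76 in ESC-FCS and 3.78 in the control cells, and most other members lie near it.

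The genes whose normalized counts followed Dnmt3l most closely over the 33 ESC-FCS cells were Cap1 (Spearman 0.70), Cnot1 (0.58), Idh3a (0.57), G3bp1 (0.57) and Eef1g (0.55), and the most opposed were Polr2f (-0.54), Timm13 (-0.54) and Atp5j2 (-0.52), out of 2025 genes. In the 42 control cells the same genes had correlations of -0.27, 0.02, -0.03, 0.17, -0.17, -0.11, -0.11 and 0.09 with Dnmt3l. None of the 8 thus kept a correlation of that size. Among the methylation genes themselves, pairs had correlations from -0.26 to 0.26 in ESC-2i (21 pairs, median -0.02), -0.29 to 0.38 in ESC-FCS (15 pairs, median 0.09) and -0.19 to 0.32 in the control cells (15 pairs, median 0.03). The counts of a cell share its depth and size factor, and at these counts weak correlations carry no finding.

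Dnmt3a was spread over 22 ends, most of them in untranslated exon sequence, with 117 molecules in all. Of these ends, 10 rest on 1 molecule each in the whole series. At the end shown above, ESC-FCS cells had 13 molecules, the control cells 4, the ESC-2i pools 11, and the ESC-2i cells, NSC and the ESC-FCS pool 0. All 8 NSC molecules, from 8 cells, lay farther downstream, within 2000 bases of the annotated gene end (95% exact binomial interval of the share 63.1% to 100%). There lay 3 of 27 molecules in ESC-FCS (11.1%, 2.35% to 29.2%), 3 of 13 in the control cells (23.1%, 5.04% to 53.8%), 7 of 59 in the ESC-2i pools (11.9%, 4.91% to 22.9%), 0 of 6 in the ESC-FCS pool and 1 of 4 in ESC-2i cells. The NSC interval does not overlap those of ESC-FCS, the control cells and the pools, in counts of 1 culture each, and this region was chosen after the values were seen.

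Tet1 molecules lay at 32 ends, 20 of which rest on 1 molecule each in the whole series. The distal end had 123 molecules and the proximal end, 8138 bases before it, had 41. The proximal end lies in a coding exon, 87 bases from the nearest annotated transcript end. Of the molecules at either, the distal end took 72.4% in ESC-2i (95% exact binomial interval 52.8 to 87.3), 70.0% in ESC-FCS (45.7 to 88.1), 85.7% in the control cells (72.8 to 94.1), 72.5% in the ESC-FCS pool (56.1 to 85.4) and 62.5% in the ESC-2i pools (40.6 to 81.2). All of these intervals overlap, but they leave out the molecules at the other ends. Over all Tet1 molecules the distal end took 39.6% in ESC-2i (26.5 to 54.0), 32.6% in ESC-FCS (19.1 to 48.5), 71.2% in the control cells (57.9 to 82.2), 64.4% in the ESC-FCS pool (48.8 to 78.1) and 32.6% in the ESC-2i pools (19.5 to 48.0). On this measure the control cells lay above ESC-2i, ESC-FCS and the ESC-2i pools with no overlap of intervals, so 2 sets of serum cells differed, and the interval of the ESC-FCS pool overlapped that of the control cells. Uhrf1 placed 10 of its 156 molecules in ESC-2i cells at position 56322711, an end 772 bases upstream of its main one, and 0 of 35 in ESC-FCS cells. With at least 20 molecules at the 2 most used ends in each population, 4 genes could be compared (Dnmt1, Dnmt3b, Uhrf1 and Tet1). Of these, 0 shifted by 10 percentage points, where 16% of 1585 genes did between ESC-FCS and ESC-2i. In ESC-2i and ESC-FCS the more distal end held 98.4% and 97.9% for Dnmt1, 4.76% and 0% for Dnmt3b and 93.4% and 100% for Uhrf1. Those genes had nearly a single end, so for them the count does not speak to a choice between ends. No member had enough molecules at its ends for NSC, where 17.4% of genes shifted against ESC-FCS and 19% against ESC-2i.

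**Figure D5:**
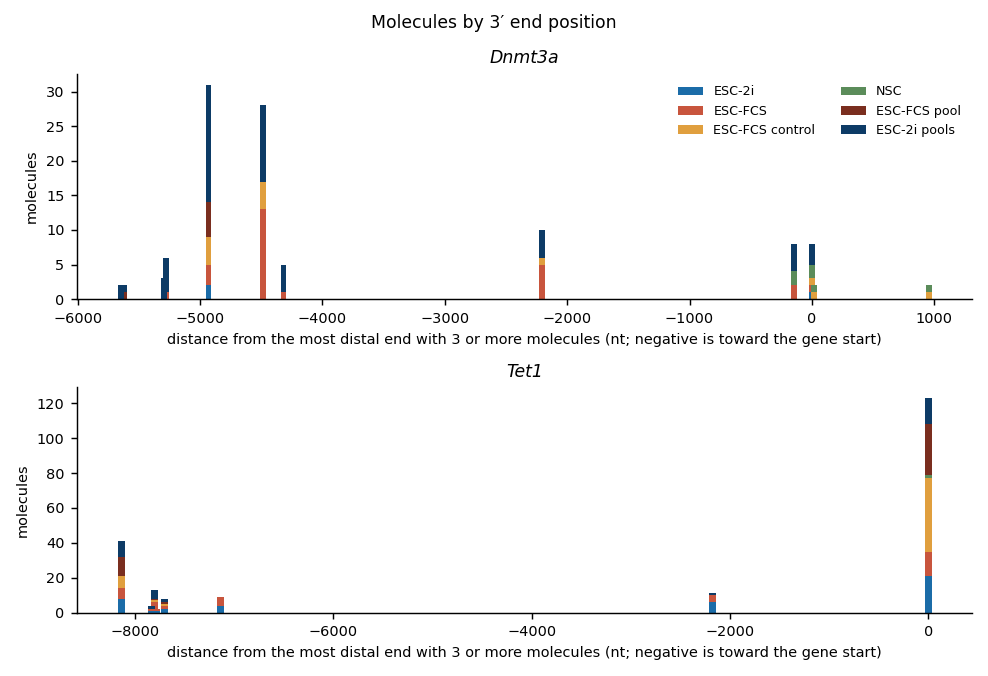
Molecules (vertical axes) by the distance of their 3′ end in bases from the most distal end with at least 3 molecules (horizontal axes, negative toward the gene start) for Dnmt3a and Tet1, stacked by library and limited to ends with at least 2 molecules near the gene's end. Dnmt3a molecules are spread over many ends, most of them far upstream of the last one, and Tet1 has 123 molecules at its last end and 41 at an end 8138 bases before it.

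Other genes of the pathway were read from a list of 45, of which 42 had a molecule. Between ESC-FCS and ESC-2i, 23 had enough molecules and 4 were higher in serum, with Hells, a remodeller needed for full methylation, at 5.29 against 2.12 per 10000 (120 and 78 molecules), and ratios for Mbd3, a NuRD subunit, at 2.26, Mat2a, which makes the methyl donor, at 2.20, and Cxxc1, a CpG-binding subunit of a histone methyltransferase, at 2.00. Another 2 were lower, the repair scaffold Xrcc1 at 0.284 and Prdm14, a repressor of de novo methyltransferase genes in stem cells, at 0.474. Over all genes tested 8.17% were higher and 14.5% lower. Several of these calls rest on few molecules in ESC-FCS and ESC-2i, with 16 and 13 for Cxxc1, which passed the limit only just. Xrcc1 had 7 and 40, Prdm14 7 and 24, Mbd3 50 and 36 and Mat2a 111 and 82. For Hells, Mbd3, Mat2a, Cxxc1, Xrcc1 and Prdm14 in this order, the ratios of the control cells to the same ESC-2i cells were 2.16, 1.93, 2.38, 1.91, 0.454 and 0.550. Those of the ESC-FCS pool to the ESC-2i pools were 0.475, 1.43, 0.697, 0.843, 0.213 and 0.388, so Hells, Mat2a and Cxxc1 lay on the other side of 1 there. The median ratio of the list was 1.20 against 0.956 over all genes.

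In NSC against ESC-FCS, 20 of the list had enough molecules, of which 3 were higher (Xrcc1, Cxxc5, Ogt; 20.9% of all genes were higher) and 5 lower (Hells, Cdca7, Pcna, Apobec3, Trim28; 18.4% of all genes were lower). Per 10000 molecules, Hells was 5.74-fold lower and Trim28, the partner of Zfp57, 2.39-fold lower. Against ESC-2i, 22 had enough, with 5 higher (Uhrf2, Mbd3, Setd2, Ogt, Mat2a; 19.3% of all genes) and 5 lower (Hells, Usp7, Parp1, Apobec3, Prdm14; 24.3% of all genes). Uhrf2 rests on 10 molecules in each population, just the minimum, and Setd2 on 15 in NSC and 13 in ESC-2i. Ogt, which binds Tet proteins, and Mat2a had 31 and 115 molecules in NSC. The median ratios of the list were 0.673 and 0.859, against 1.03 and 0.963 over all genes. In the test of variation between cells, Dppa3 passed in ESC-2i (1 of 21 tested), Pcna in ESC-FCS (1 of 13), none of 6 in NSC and Gadd45a, Ogt and Mat2a in the control cells (3 of 14), where 0.608%, 3.36%, 10.7% and 6.15% of all genes tested passed in these populations. The Dppa3 call rests on 14 molecules in 4 of the 33 ESC-2i cells, with a CV2 of 23.8 against 2.21.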

How the data were processed

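BATSeq libraries of 48 single cells from each of 4 populations and 3 pools of 48 cells were analysed. The authors aligned reads to GRCm38 with GSNAP, merged UMIs and neighbouring positions and deposited counts of molecules (UMIs) and reads per polyadenylation site, not normalized. HTSeq and R 3.0.2 are named in the submitters' notes. The deposited table of genes, which holds the cells kept in ESC-2i, ESC-FCS and NSC, gives the sum of sense sites in all but 4 entries. The last column names of the site tables are exchanged and were read by content. Positions are the deposited ones plus 1 and may be off by 1 base. Cells needed 1000 molecules. Groups came from the labels. Levels were pooled over cells, with exact 95% intervals and a floor of 3 molecules. Brennecke's test (threshold 0.1) was written anew in Python 3.11.15 with scipy 1.17.1, numpy 2.4.6, pandas 2.3.3 and matplotlib 3.10.9, and tested on simulated data. The 9 genes, the list of 45 and the markers were chosen with earlier results of these data known. Genes named are the 9, the 5 most like and 3 most unlike Dnmt3l, and listed genes past a limit. Symbols matched 19321 of 19736 identifiers. The cell barcodes, 24 in number, are shared by all 8 batches, which a batch barcode separates, and no pair of cells was identical. The sequence of another end of Dnmt3a is not reported here.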

Additional observations from a re-analysis of the deposited data

How the results depend on the processing

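Counts of the 9 genes past 2-fold, with variable expression or with shifted ends were recomputed under other cell limits, scalings, size factors, fold limits, molecule minimums and batches, and 63 planned recounts stayed within 1.5 times the value reported and 10 did not. The tally compares counts and not the genes in them, and a change from 6 to 9 (NSC against ESC-FCS, no minimum) counts as staying. Where no member was tested, as for variation in NSC, a count of 0 had little room to change. In batch 2 alone, ESC-FCS against ESC-2i gave 3 genes and NSC against ESC-FCS gave 0. NSC against ESC-2i gave 3 genes in batch 1 and 2 in batch 2. In these NSC comparisons most of the 9 genes had fewer than 20 molecules within a single batch. With no biological margin, 2 genes were variable in ESC-FCS. In batch 2 alone, and without the highest cell of each gene, 0 were variable in ESC-FCS or in the control cells, and size factors from totals also gave 0 in the control cells. When pools replaced single cells, an alternative chosen after the data were seen, some ESC-FCS to ESC-2i ratios lay on the other side of 1. These were Dnmt3a (0.553), Dnmt3b (0.601), Uhrf1 (1.28) and Zfp57 (2.08). The intervals of Dnmt3a (0.195 to 1.28) and Uhrf1 (0.962 to 1.68) include 1, and the median over all genes there was 0.777. In batch 2 alone, NSC over ESC-FCS changed side for Dnmt3a (2.23, from 5 and 3 molecules). NSC over ESC-2i did so for Tet2 (1.01, from 3 and 8 molecules). The cause of these changes of side was not tested. Scaling to spike-ins kept the count of 5 for ESC-FCS against ESC-2i, of which 3 were shared with the reported 5. Shares of all genes under these settings are not given here, so the recounts do not set the 9 genes apart from other genes. No paired analysis was possible because the numbers of cells are only names within 1 culture and no comparison between cultures is tested. Few molecules limit Tet3 in all populations, Dnmt3a in ESC-2i (4) and Zfp57 in ESC-FCS (9).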
